A study of Mus musculus with 9 samples.

Results

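The imprinted Dlk1-Dio3 cluster is a long run of miRNA genes on mouse chromosome 12. Its members were taken here as the 5′ ends of 18 to 25 nt reads on the plus strand between positions 110690000 and 111100000 of mm9, the mouse build used for mapping, with a summed count of at least 100 over the 9 libraries. Of the 11764 5′ ends of the genome that passed the same minimum, 218 were members, out of 1167 5′ ends with any count in the region. By position, 196 members lay on 91 arms of 50 miRNA hairpins, 10 on 6 small nucleolar RNAs (snoRNAs), 7 beside a hairpin, and 5 on no annotated small RNA gene. Among the 196 on arms, 89 began at the reference start of the mature miRNA and 107 began elsewhere. The members were chosen by position and by this summed count, so their abundance over the 9 libraries is a description. Just inside the minimum were miR-376b-5p (-1) and miR-134-5p (-1), each with a summed count of 103.5, and just outside it were 5′ ends with 98 and 94. A number in brackets gives the shift of a 5′ end, in bases, from the reference start (minus for upstream).

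The region is expressed from 1 parental allele. The maternally inherited chromosome produces the noncoding RNAs Meg3, Rian and Mirg together with the miRNAs and snoRNAs, and the paternally inherited chromosome produces the protein-coding genes Dlk1, Rtl1 and Dio3. A miRNA hairpin is cut by Drosha and Dicer into a 5p and a 3p arm, and the seed, bases 2 to 8 from the 5′ end, leads target pairing, so that a shifted 5′ end carries another seed. The cluster is known for high expression in brain, placenta and pancreatic islet cells, and for low expression in most other adult tissues, liver included.

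The study asked how the preparation of a small RNA library sets the miRNA levels read from it. MIN6, a mouse insulinoma line used as a model of the pancreatic beta cell, was grown in DMEM with 25 mM glucose and 10% heat-inactivated serum and was prepared with the Illumina TruSeq kit (3 libraries), the Illumina v1.5 kit (3 libraries) and the NEXTflex V2 kit (1 library). TruSeq and v1.5 attach adapters of fixed sequence, and NEXTflex attaches a pool of adapters with random bases at their ends. Liver RNA of 1 C57BL/6J female, obtained at 9 weeks of age, injected with sterile saline through the tail vein and fasted overnight, gave 1 TruSeq and 1 NEXTflex library. The study calls the 3 libraries of a kit biological replicates but does not say what separated them, so p-values here measure the spread between those libraries. The NEXTflex MIN6 library also differed from the TruSeq and v1.5 libraries in its RNA, sequencing platform and facility, and these differences and the kit cannot be told apart. Levels are given as CPM, the count relative to all deposited counts of the library, unless another unit is named.

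The libraries held 6923460 to 12458630 counts in TruSeq MIN6, 10800301 to 13158853 in v1.5, 25638871 in NEXTflex MIN6, and 17875869 and 14426009 in TruSeq and NEXTflex liver. The cell labels matched their markers. The beta-cell miRNA miR-375-3p was at 64762 to 178694 CPM in the 7 MIN6 libraries and at 36.9 and 26.6 CPM in liver. The hepatocyte miRNA miR-122-5p was at 15867 and 529951 CPM in liver, at no more than 2.28 CPM in TruSeq and v1.5 MIN6, and at 126.96 CPM in NEXTflex MIN6. The other marker of each kind was less exclusive: miR-7a-5p was at 746 to 4619 CPM in TruSeq and v1.5 MIN6, 246576 CPM in NEXTflex MIN6, and 5.76 and 633 CPM in liver, and miR-192-5p at 248 to 1380 CPM in MIN6 and 75742 and 5993 CPM in liver. Markers of blood (miR-451 and miR-486-5p) summed to 1.71 to 35.7 CPM in MIN6 and to 5856 and 1661 CPM in liver. Markers of stromal and endothelial cells (miR-143-3p, miR-145-5p and miR-199a-3p) summed to 9.13 to 15.9 CPM in MIN6 and to 9378 and 2302 CPM in liver. miR-451 was at 0 in 1 MIN6 library and miR-145-5p in 3. What these other cell types add to the liver values of the cluster was not tested. The NEXTflex files held few low counts: 5′ ends with at most 2 counts made up 41.6% and 39.0% of their 5′ ends, against 86.1 to 89.7% in the other 7 libraries. A NEXTflex value of 0 is therefore given as a count with its limit, and the source of the missing low counts was not tested.

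The mature sequences of the arms on which the results turn are shown 5′ to 3′ with the seed in capitals. The 10 arms with the highest MIN6 levels come first, since they carry most of the cluster's counts.
miR-127-3p: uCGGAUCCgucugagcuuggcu
miR-541-5p: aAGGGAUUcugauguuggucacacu
miR-379-5p: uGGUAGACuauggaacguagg
miR-434-3p: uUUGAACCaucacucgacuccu
miR-381-3p: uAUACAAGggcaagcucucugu
miR-411-5p: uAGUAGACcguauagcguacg
miR-410-3p: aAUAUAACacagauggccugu
miR-136-5p: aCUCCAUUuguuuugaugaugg
miR-369-3p: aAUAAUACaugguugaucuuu
miR-434-5p: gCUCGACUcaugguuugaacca
The next arms are among those that differed most between v1.5 and TruSeq, or whose partner arm did. With them is miR-376b-3p, which had the highest mean share of A-to-G mismatches over the TruSeq and v1.5 libraries.
miR-127-5p: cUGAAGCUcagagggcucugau
miR-380-5p: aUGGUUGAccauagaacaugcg
miR-380-3p: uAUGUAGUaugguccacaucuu
miR-154-5p: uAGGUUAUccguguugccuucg
miR-154-3p: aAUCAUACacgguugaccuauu
miR-541-3p: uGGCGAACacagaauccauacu
miR-409-5p: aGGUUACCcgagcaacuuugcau
miR-409-3p: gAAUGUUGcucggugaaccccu
miR-494-3p: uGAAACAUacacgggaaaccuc
miR-666-3p: gGCUGCAGcgugaucgccugcu
miR-431-5p: uGUCUUGCaggccgucaugca
miR-376b-3p: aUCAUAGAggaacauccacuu
The sequences and annotation are from RefSeq and GENCODE on GRCm38, where every hairpin is on the plus strand. Mir127 (chr12:109592846-109592915), Mir431 (chr12:109590447-109590537), Mir434 (chr12:109594506-109594599) and Mir136 (chr12:109595327-109595388) lie antisense to Rtl1. Mir379 (chr12:109709060-109709125), Mir411 (chr12:109710175-109710256), Mir380 (chr12:109711803-109711863), Mir494 (chr12:109715318-109715402), Mir666 (chr12:109717085-109717183), Mir376b (chr12:109723458-109723539) and Mir381 (chr12:109726822-109726896) are intergenic in the annotation. Mir154 (chr12:109738433-109738498), Mir541 (chr12:109742409-109742498) and Mir409 (chr12:109743158-109743236) lie in Mirg introns, and Mir369 (chr12:109743418-109743496) and Mir410 (chr12:109743715-109743795) in Mirg exons.

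Seeds were nearly all different. The 196 members on arms carried 188 distinct seeds, and no seed was shared by 3 or more of them. Among the 8 shared pairs were miR-381-3p with miR-539-3p (AUACAAG), miR-379-3p with miR-411-3p (AUGUAAC), miR-376c-5p with miR-376b-5p (UGGAUAU), and miR-379-5p with the reference start of miR-1193-5p (GGUAGAC). miR-379-3p and miR-411-3p were alike in 20 of 22 compared bases and differed by U10C and U22C, counted from 1 at the 5′ end with the base of miR-379-3p first.

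Along the chromosome, the hairpins fell into 4 groups within 184 kb: 6 hairpins from Meg3 to Rtl1, 5 antisense to Rtl1, 3 in Rian, and 36 from Mir379 through Mirg. The 10 members on snoRNAs and the 5 on no annotated small RNA gene were put in none of these groups. The group antisense to Rtl1 held most counts in TruSeq and the Mirg group held most in v1.5. In TruSeq the members antisense to Rtl1 summed to 39649 ± 2027 CPM (SD, n = 3) and in v1.5 to 10851 ± 556 CPM (SD, n = 3). The Mirg group went the other way, with 16551 ± 163 CPM (SD, n = 3) in TruSeq and 23538 ± 463 CPM (SD, n = 3) in v1.5. In NEXTflex MIN6 these groups stood at 1877 and 6934 CPM. The smaller groups, from Meg3 to Rtl1 and in Rian, held 784 ± 36.8 and 467 ± 15 CPM in TruSeq and 534 ± 20.4 and 257 ± 9.94 CPM in v1.5 (SD, n = 3 each).

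**Figure D1:**
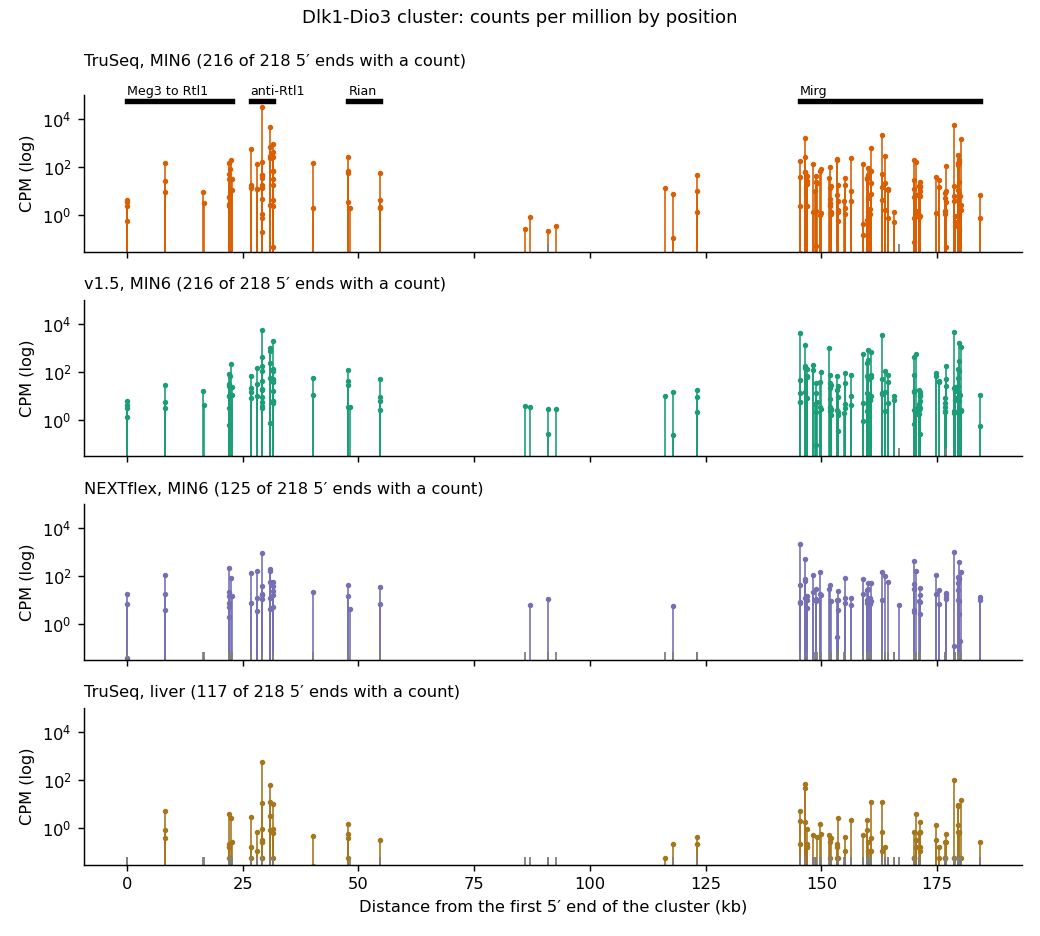
Level of each of the 218 5′ ends along the cluster (CPM, log axis) against the distance in kb from the first one, as the mean of 3 libraries in TruSeq and v1.5 and as 1 library each in NEXTflex MIN6 and TruSeq liver. Grey ticks mark 5′ ends without a count and black bars the 4 groups; 2 5′ ends had no count in TruSeq and 2 in v1.5, of which 1 had none in either kit, against 93 in NEXTflex MIN6 and 101 in TruSeq liver.

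The cluster as a whole made up 5.61, 5.70 and 5.99% of counts in the TruSeq MIN6 libraries and 3.45, 3.5 and 3.65% in v1.5. The groups did not overlap, at 5.77 ± 0.201% against 3.53 ± 0.104% (SD, n = 3 each), and the two-sided exact permutation test gave p = 0.1, the smallest value that 3 libraries against 3 allow. NEXTflex MIN6 was below both, at 0.948% (95% Wilson binomial interval 0.944 to 0.951%, counting error only). This order rested on 1 miRNA: without miR-127-3p the share was 2.67 ± 0.0285% in TruSeq and 2.97 ± 0.0561% in v1.5 (SD, n = 3 each; exact permutation p = 0.1), so that v1.5 was then the higher, and NEXTflex was at 0.855%.

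miR-127-3p, which is perfectly complementary to the Rtl1 transcript, was the most abundant member in both Illumina kits. It was at 29207, 30592 and 33008 CPM in TruSeq, at 5188, 5447 and 6123 CPM in v1.5, and at 926 CPM in NEXTflex MIN6. The lowest TruSeq library was thus far above the highest v1.5 library. miR-127-3p made up 53.6 ± 1.5% of the cluster's counts in TruSeq, 15.8 ± 0.890% in v1.5 (SD, n = 3 each) and 9.77% in NEXTflex.

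miR-379-5p, the first hairpin product of the Mirg group, was instead lowest in TruSeq. It was at 198, 178 and 161 CPM in TruSeq, at 3801, 3857 and 4414 CPM in v1.5, and at 2202 CPM in NEXTflex, where it was the most abundant member. Its share of the cluster was 0.311 ± 0.0425% in TruSeq, 11.4 ± 0.621% in v1.5 (SD, n = 3 each) and 23.2% in NEXTflex. The miRNA that ranked first in the NEXTflex library was thus among the minor products of the cluster in TruSeq.

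In MIN6 miR-541-5p made up a like share with each kit, with 10.0 ± 0.936% of the cluster in TruSeq, 12 ± 0.514% in v1.5 (SD, n = 3 each) and 10.5% in NEXTflex. In liver its share was 9.68% with TruSeq and 0.427% with NEXTflex, the latter on 4 counts. Its MIN6 levels were 6091, 5789 and 5398 CPM in TruSeq, 4308, 4228 and 4187 CPM in v1.5, and 995 CPM in NEXTflex. The mature miR-541-5p is 25 nt long, and reads of 26 nt that begin at its start were outside the length limit used here. miR-434-3p was at 4605, 4366 and 4645 CPM in TruSeq and at 884, 929 and 937 CPM in v1.5, with 189 CPM in NEXTflex. Its partner arm miR-434-5p stood at 680, 744 and 728 CPM in TruSeq and at 719, 703 and 742 CPM in v1.5. The ranges of miR-434-5p overlapped, and of the 10 most abundant arms it alone did not pass the test between these kits on the scale used here. With no filter on low counts, miR-541-5p and miR-411-5p lost their call as well (edgeR adjusted p = 0.489 and 0.351).

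Of the remaining abundant arms, 3 differed less between TruSeq and v1.5. miR-381-3p had means of 2101 ± 108 and 3205 ± 123 CPM, miR-411-5p of 1701 ± 90.6 and 1333 ± 121 CPM, and miR-410-3p of 1561 ± 89.1 and 1037 ± 131 CPM (SD, n = 3 each, TruSeq first). The groups of 3 libraries did not overlap for any of them, but the higher level of miR-381-3p in v1.5 did not pass with DESeq2's size factors (log2 fold change 0.14, edgeR adjusted p = 0.171). miR-136-5p and miR-369-3p differed more, at 425 ± 9.80 and 168 ± 11.8 CPM in TruSeq against 1883 ± 27.7 and 1594 ± 54.9 CPM in v1.5 (SD, n = 3 each).

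**Figure D2:**
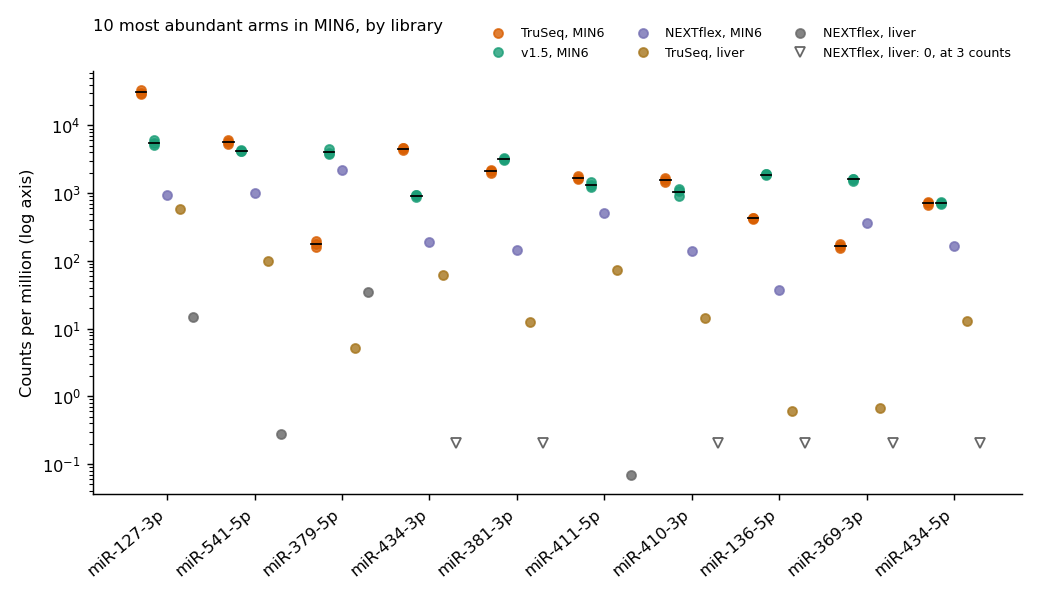
CPM on a log axis of the 10 arms with the highest MIN6 levels, with a point for each library and a black line for the mean of 3. The points of TruSeq and v1.5 overlap for miR-434-5p alone; miR-127-3p was at 29207 to 33008 CPM in TruSeq and 926 CPM in NEXTflex, and miR-379-5p at 161 to 198 CPM in TruSeq and 2202 CPM in NEXTflex; open triangles mark 0 in the NEXTflex liver library, drawn at the level of 3 counts.

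Between v1.5 and TruSeq in MIN6, 171 of the 218 members (78.4%) passed edgeR's quasi-likelihood test, with an adjusted p (Benjamini-Hochberg) below 0.05. Of these calls, 107 had the higher level in v1.5 and 64 in TruSeq. Over all 11764 5′ ends tested, 53.8% passed, 34.3% as higher in v1.5 and 19.5% as higher in TruSeq. Where only 5′ ends with at least 100 counts in these 6 libraries were counted, 165 of 203 members (81.3%) passed, 103 as higher in v1.5 and 62 as higher in TruSeq. The background was 82.9% of 6059 5′ ends in the genome, with 54.9% higher in v1.5 and 28.0% higher in TruSeq, so that the share of members called was near that of other 5′ ends of like depth. The median log2 fold change (v1.5 over TruSeq) was 0.49 over the members and 0.026 over all 5′ ends, or 0.54 and 0.94 with at least 100 counts in the 6 libraries. Differences reached past 2-fold in 123 members and past 4-fold in 66. With edgeR's TMM scaling the members' log2 fold changes moved by -0.42 and the calls split into 87 higher in v1.5 and 85 higher in TruSeq, and with DESeq2's size factors they moved by -0.47 and split into 83 and 87.

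By position, 78 of the 141 members of the Mirg group were higher in v1.5, 32 were higher in TruSeq and 31 were not called, with a median log2 fold change of 0.76. Of the 33 members antisense to Rtl1, 13 were higher in v1.5 and 16 in TruSeq (median -0.11). Of the 20 members from Meg3 to Rtl1, 6 were higher in v1.5 and 9 in TruSeq (median -0.10), and of the 9 members in Rian 3 were higher in each kit (median -0.13). With TMM scaling the split was 68 and 44 in the Mirg group, 10 and 19 antisense to Rtl1, 1 and 12 from Meg3 to Rtl1, and 1 and 5 in Rian, and the sign of each median stayed as given. Over all 5′ ends the shares higher in v1.5 and in TruSeq were 34.3% and 19.5%, and with TMM scaling 29.1% and 24.9%. No test was made of a group.

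Taken by arm, at the most abundant 5′ end of each, 47 of 91 arms were higher in v1.5, 31 were higher in TruSeq and 13 did not pass, beside 34.3% and 19.5% of all 5′ ends, or 54.9% and 28.0% at 100 or more counts in the 6 libraries. The largest difference in favor of v1.5 was that of miR-380-5p, with a log2 fold change of 6.34 ± 0.23 (SE; edgeR adjusted p = 1.28e-06). miR-154-3p followed, at 0.867, 1.54 and 1.28 CPM in TruSeq and 89.7, 87.3 and 71.9 CPM in v1.5 (log2 fold change 6.05 ± 0.19 SE, edgeR adjusted p = 7.53e-07). miR-541-3p was at 0.144, 0.560 and 0.321 CPM in TruSeq and at 23.0, 23.0 and 20.6 CPM in v1.5 (5.98 ± 0.25 SE, edgeR adjusted p = 2.10e-06). These 3 arms had 1 to 19 counts in each TruSeq library, so that the low end of the comparison rests on few reads.

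miR-494-3p was at 44.6, 38.4 and 26.8 CPM in TruSeq and at 1184, 984 and 836 CPM in v1.5, a log2 fold change of 4.78 ± 0.23 (SE; edgeR adjusted p = 4.18e-06). For miR-379-5p the log2 fold change was 4.49 ± 0.11 (SE; edgeR adjusted p = 2.94e-07). miR-544-5p was low in both kits, at 0.512 ± 0.559 CPM in TruSeq and 10.0 ± 1.25 CPM in v1.5 (SD, n = 3 each; log2 fold change 4.40 ± 0.49 SE, edgeR adjusted p = 0.000201), and its log2 fold change was 5.55 without TruSeq replicate 1. Of the abundant arms, miR-369-3p was 9.52-fold and miR-136-5p 4.43-fold higher in v1.5.

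In the other direction, miR-666-3p differed most, at 231, 226 and 221 CPM in TruSeq and 21.4, 15.8 and 14.7 CPM in v1.5 (log2 fold change -3.71 ± 0.15 SE, edgeR adjusted p = 1.87e-06). miR-431-5p was at 527, 550 and 624 CPM in TruSeq and at 65.8, 64.2 and 61.3 CPM in v1.5 (-3.15 ± 0.08 SE, edgeR adjusted p = 3.42e-07). The miR-136-3p form that starts 1 base upstream of the reference was 8.37-fold higher in TruSeq, miR-409-3p 6.10-fold, miR-127-3p 5.54-fold and miR-673-5p 5.10-fold. In each of these 6 arms every TruSeq library was above every v1.5 library.

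The arms that passed in neither direction included abundant ones. miR-300-3p was at 646 ± 32.1 CPM in TruSeq and 637 ± 15.7 CPM in v1.5 (SD, n = 3 each; log2 fold change -0.020 ± 0.050 SE, edgeR adjusted p = 0.892). miR-434-5p had a log2 fold change of 0.0084 ± 0.049 (SE; edgeR adjusted p = 1). With TMM scaling both were called as higher in TruSeq, with log2 fold changes of -0.44 for miR-300-3p (edgeR adjusted p = 0.000951) and -0.41 for miR-434-5p (edgeR adjusted p = 0.00165), so whether they differed between kits depended on the scaling.

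**Figure D3:**
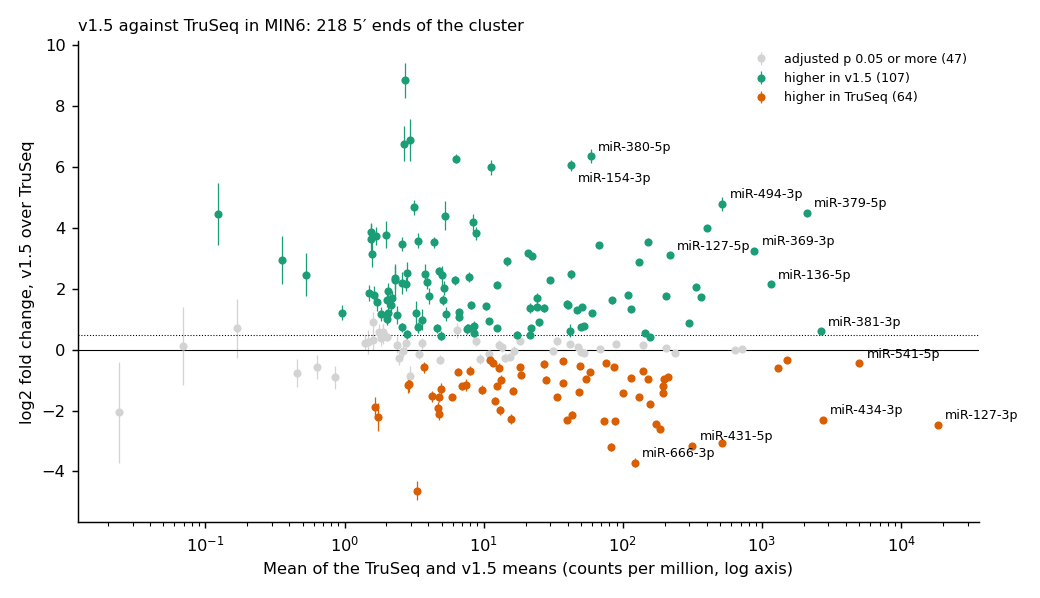
log2 fold change of v1.5 over TruSeq in MIN6 (edgeR, bars are 1 SE) against the mean of both kits' CPM (log axis) for the 218 5′ ends, colored by the call at an adjusted p under 0.05, with a dotted line at the median of 0.49. Of the members, 107 were higher in v1.5 and 64 in TruSeq, and both directions occur at high levels, as miR-379-5p (4.49) and miR-127-3p (-2.47) show.

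By the first base of the arm, the median log2 fold change was 1.20 over 11 arms that begin with G, 0.54 over 35 that begin with U, 0.25 over 32 that begin with A and -0.38 over 13 that begin with C. Each class held arms higher in either kit: of the arms that begin with G, 7 were higher in v1.5 and 2 in TruSeq, and of those that begin with C, 6 and 7. Of all 5′ ends 34.3% and 19.5% were called so, or 54.9% and 28.0% at 100 or more counts in the 6 libraries. Over 42 5p arms the median was 0.83, and over 49 3p arms it was 0.18. These medians describe overlapping ranges, from -3.71 to 3.47 for G and from -3.06 to 3.09 for C, and were not tested. TMM scaling moved the members' log2 fold changes by -0.42, which is more than the medians over A and over 3p arms.

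Both arms of a hairpin come from 1 precursor, so the ratio between them needs no scaling. Among 41 hairpins with both arms among the members, 14 had one arm higher in v1.5 and the other higher in TruSeq: Mir127, Mir134, Mir136, Mir409, Mir410, Mir412 and Mir667 with the 5p arm higher in v1.5, and Mir369, Mir377, Mir411, Mir431, Mir541, Mir679 and Mir770 with the 3p arm higher in v1.5. Both arms were higher in v1.5 in 12 hairpins and higher in TruSeq in 4. In the remaining 11 at least 1 arm did not pass. Unlike the ratio, these calls depend on the scaling, so the counts of hairpins hold for the scale used here. Of all 5′ ends 34.3% were called higher in v1.5 and 19.5% in TruSeq, or 54.9% and 28.0% at 100 or more counts in the 6 libraries. With no filter on low counts the 5p arms of Mir411 and Mir541 lost their call.

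The ratio of 5p to 3p counts, over all 5′ ends of each arm, did not overlap between the 3 TruSeq and the 3 v1.5 libraries in 34 of 41 hairpins. That is 82.9% of the hairpins, set beside calls on single 5′ ends, which are another measure, in 53.8% of all 5′ ends and in 82.9% of those with at least 100 counts in the 6 libraries, so the count by itself shows nothing particular to these hairpins. It moved towards 5p in v1.5 in 21 of them and towards 3p in 13. Each of the 34 had the smallest two-sided exact permutation p possible, 0.1, which became 0.121 after Benjamini-Hochberg adjustment over the 41 hairpins, so no single hairpin can pass 0.05 in this design. In 9 hairpins the more abundant arm, by the mean of each kit, was another one in v1.5 than in TruSeq, and in 6 of them (Mir136, Mir154, Mir376a, Mir409, Mir412 and Mir666) this held in every library.

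Mir409 moved most on the log2 scale of the ratio, by 6.10. Its 5p arm made up 1.75 to 2.17% of its counts in TruSeq and 55.6 to 58.0% in v1.5, with miR-409-5p at 11.3 ± 1.06 and 123 ± 1.23 CPM and miR-409-3p at 319 ± 5.37 and 52.3 ± 4.51 CPM (SD, n = 3 each, TruSeq first). In Mir380 the 5p share was 0.580 to 1.46% in TruSeq and 37.7 to 41.5% in v1.5, while miR-380-3p was at 134.2 ± 8.99 and 181 ± 6.28 CPM (SD, n = 3 each), a difference that was not called with TMM scaling (log2 fold change 0.013) and had the other sign with DESeq2's size factors (-0.044). In Mir154 the shift was towards 3p, from a 5p share of 96.4 to 97.7% in TruSeq to 41.3 to 48.9% in v1.5. In Mir541, both of whose arms were called, the 5p share stayed high, at 99.97% in TruSeq and 98.97% in v1.5 on average.

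The hairpin of the most abundant member behaved likewise. miR-127-5p was at 43.9, 42.2 and 50.4 CPM in TruSeq and at 366, 376.6 and 426 CPM in v1.5 (log2 fold change 3.09 ± 0.10 SE, edgeR adjusted p = 7.74e-07), opposite in sign to miR-127-3p. The 5p share of Mir127 was 0.296 to 0.346% in TruSeq and 9.57 to 10.1% in v1.5. In Mir136 it was 29.3 to 30.05% in TruSeq and 87.9 to 88.7% in v1.5, and in Mir369 49.9 to 52.2% in TruSeq and 4.98 to 5.38% in v1.5. The dominant arm of Mir136 thus changed from 3p to 5p, and its mean 5p share, at 29.7% and 88.4%, moved by more percentage points than that of Mir409, at 1.89% and 56.9%.

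Not every hairpin moved. In Mir673 both arms were higher in TruSeq, by 5.10-fold and 4.85-fold, and the 5p share was 85.4 to 86.3% in TruSeq and 82.2 to 88.1% in v1.5. In Mir299a both arms were higher in v1.5, by 2.81-fold and 3.07-fold, and the 5p share was 20.7 to 28.3% and 24.3 to 26.4%. The ranges overlapped in both hairpins, which were those with the smallest mean differences.

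**Figure D4:**
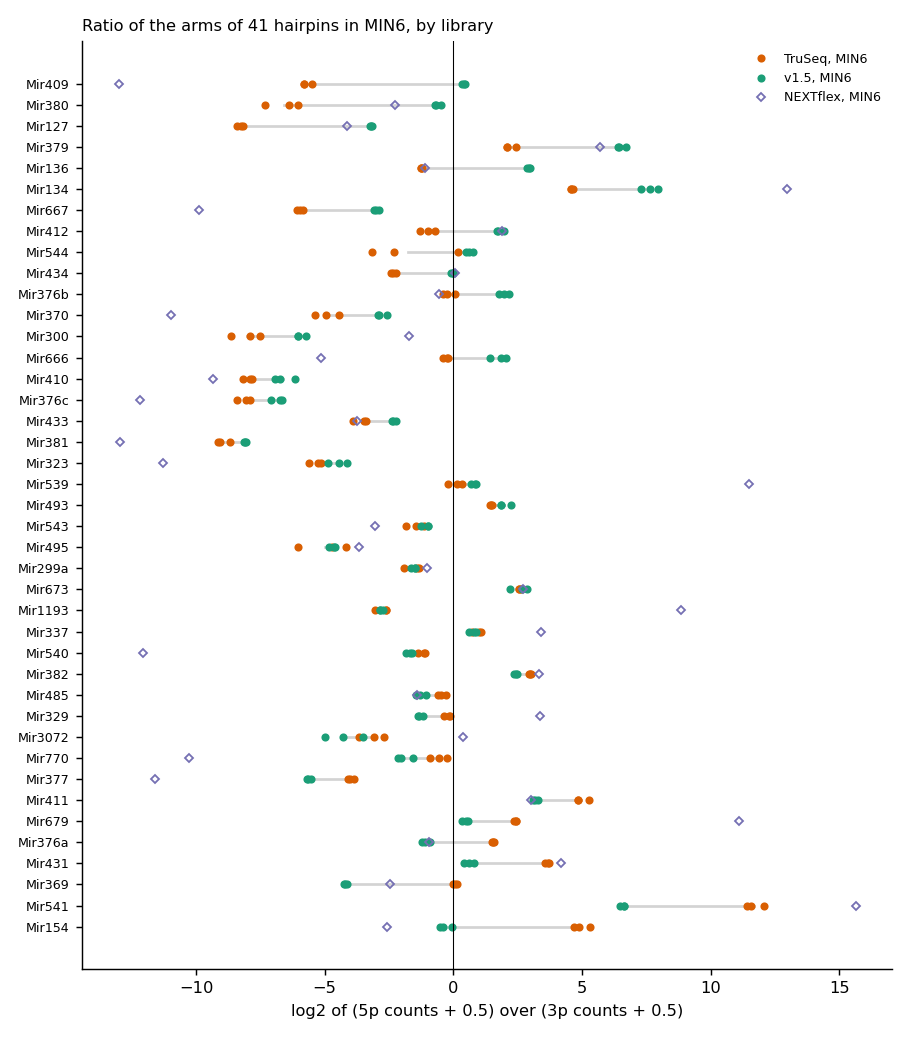
log2 of 5p over 3p counts (0.5 added to each) for 41 hairpins in MIN6, 1 point per library and hairpins ordered by the mean difference between v1.5 and TruSeq, joined by a grey line. The kits do not overlap in 34 hairpins, from Mir409 at the top (towards 5p in v1.5) to Mir154 at the bottom (towards 3p). NEXTflex points far out on either side belong to arms without a count in that library, apart from Mir410, whose 5p arm was at 0.195 CPM.

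Over the whole cluster, 5p arms made up 20.7 ± 0.997% of the cluster's counts in TruSeq and 45.8 ± 0.264% in v1.5 (SD, n = 3 each; exact permutation p = 0.1), with 60.5% in NEXTflex. Without miR-127-3p the shares were 44.6 ± 0.795% and 54.4 ± 0.560% (SD, n = 3 each; exact permutation p = 0.1) and 67.0%, in the same order.

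Of 66 arms with at least 20 CPM in 1 of the MIN6 groups, NEXTflex was below both TruSeq and v1.5 in 41, between them in 19 and above both in 6, and the median ratio to the mean of the other kits was 0.353. By the same level rule, NEXTflex was below both in 52.2% of 1770 5′ ends of the genome, with a median ratio of 0.339, in a library in which miR-7a-5p alone took 246576 CPM. This comparison has 1 NEXTflex library and no test. The arms with the highest ratios were miR-485-3p, at 31.8 CPM against 9.91 and 6.13 CPM in TruSeq and v1.5, miR-329-5p, at 145 CPM against 71.5 and 36.6 CPM, miR-154-3p, at 104 CPM against 1.23 and 83.0 CPM, and miR-337-5p, at 211 CPM against 149 and 78.9 CPM. These 4 arms stood at 3.96, 2.69, 2.47 and 1.85 times the mean of the other kits at their most abundant 5′ end. With all member starts of an arm summed, miR-485-3p was at 42.4 CPM in NEXTflex, 42.2 CPM in TruSeq and 30.4 CPM in v1.5, a ratio of 1.17, so its value holds for the reference start alone. The other 3 arms then stood at 2.91, 2.47 and 1.82.

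At the other end, 8 of these 66 arms had no count in the NEXTflex library: miR-540-5p, miR-758-3p, miR-541-3p, miR-409-5p, miR-539-3p, miR-376a-5p (+1), miR-1193-3p and miR-679-3p (+2). A count of 0 in this library allows up to 3 counts, or 0.117 CPM. Against that limit miR-376a-5p (+1), with 93.6 and 314 CPM in TruSeq and v1.5, was at least 1742-fold lower than the mean of both. miR-540-5p, at 86.7 and 64.0 CPM in those kits, was at least 644-fold lower, and miR-409-5p at least 572-fold lower. These limits hold if a 5′ end missing from the NEXTflex file had no read, which its few low counts leave uncertain: of 126 5′ ends of the region with a count in that library, 2 had at most 2 counts. miR-666-5p had 7 counts in NEXTflex (0.273 CPM, exact Poisson interval 0.110 to 0.563 CPM, counting error only) against 194 ± 10.2 and 66.4 ± 2.70 CPM (SD, n = 3 each). For miR-376a-5p all NEXTflex counts began at the reference start, so its value is for the (+1) form alone.

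The arm ratio in NEXTflex was nearer to v1.5 than to TruSeq in 18 of 39 hairpins. For Mir409 it lay with TruSeq, since miR-409-3p had 87.2 CPM and miR-409-5p no count. For Mir154 it lay beyond v1.5, with a 5p share of 14.4%. For Mir380 it lay between, with miR-380-5p at 22 CPM and miR-380-3p at 105 CPM.

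Liver held far less of the cluster than MIN6 with either kit. In TruSeq the cluster made up 0.102% of liver counts (95% Wilson binomial interval 0.10 to 0.103%), against 5.77% in MIN6, a ratio of 56.6 (counting interval 55.8 to 57.4). In NEXTflex it made up 0.00649% (0.00609 to 0.00692%) against 0.948%, a ratio of 146 (137 to 156), or of 410.8 without miR-127-3p and miR-379-5p, and 208 of the 218 members had no count in NEXTflex liver, a file with few low counts. Liver was 1 mouse, the TruSeq liver library was sequenced on another platform than the TruSeq MIN6 libraries, and no test was made. In a tissue against a cell line, fewer expressing cells and less RNA per cell cannot be told apart.

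With TruSeq 216 of the 218 members were listed higher in MIN6 than in liver, beside 49.4% of all 5′ ends, and the other 2 had no count in either. With NEXTflex 124 were listed higher in MIN6, beside 42.7% of all 5′ ends, 93 had no count in either library, and miR-485-3p (+1) was the other way round, at 7.96 CPM in MIN6 and 14.8 CPM in liver. Since 7 of the 9 libraries that set the minimum count were MIN6, members passed it mainly through MIN6, and these counts are a description. Some lie within the limit of a count of 0: miR-410-5p was at 0.195 CPM in NEXTflex MIN6, and 0 counts in NEXTflex liver allow up to 0.208 CPM. With all 5′ ends of an arm summed, 40 arms had at least 10 counts in TruSeq liver and 26 had none, and in NEXTflex liver 3 arms had at least 10 counts and 81 had none. Of the 936 counts in NEXTflex liver, 499 were miR-379-5p, 214 were miR-127-3p and 213 were miR-485-3p (+1). The TruSeq liver library instead held 10311 counts of miR-127-3p, 1763.5 of miR-541-5p, 1294 of miR-411-5p, 1093 of miR-434-3p and 91 of miR-379-5p. The leading member in liver was that of MIN6 with the same kit, with miR-127-3p at 56.6% of the cluster's counts in TruSeq and 22.9% in NEXTflex, and miR-379-5p at 0.5% and 53.3%. Lower ranks differed: miR-541-5p and miR-411-5p, at 995 and 505 CPM in NEXTflex MIN6, had 4 counts and 1 count in NEXTflex liver, where miR-485-3p (+1) had 213.

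Among arms with at least 10 counts in TruSeq liver, the ratio of MIN6 to liver ran from 6.59 (counting interval 4.91 to 8.84) for miR-543-3p to 690 (382.03 to 1246) for miR-136-5p. miR-127-3p, at 577 CPM in TruSeq liver, had a ratio of 53.6 (52.6 to 54.7) with TruSeq and of 62.4 (54.5 to 71.4) with NEXTflex. With TruSeq the ratio was 23.5 (22.2 to 24.8) for miR-411-5p, 74.2 (69.9 to 78.8) for miR-434-3p, 109 (96.4 to 123) for miR-410-3p and 166 (146 to 189) for miR-381-3p. With NEXTflex the ratio was 7280 (1025 to 51683) on 1 liver count for miR-411-5p and, against the limit of 0 counts, at least 911 for miR-434-3p, 676 for miR-410-3p and 702 for miR-381-3p, values that give no order among these arms. The limits hold if a 5′ end missing from that file had no read. These intervals cover counting error only, without molecular identifiers in the reads. The groups along the chromosome had TruSeq ratios of 57.9 antisense to Rtl1, 57.0 from Meg3 to Rtl1, 52.3 in the Mirg group and 160 in Rian, the last on 52 liver counts. With NEXTflex they were 126.5 antisense to Rtl1, 7457 (1050 to 52943) on 1 liver count from Meg3 to Rtl1, 139 in the Mirg group and at least 472 in Rian.

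5′ starts varied within arms. Of 54 arms with several member starts, 51 had enough counts to compare, and in 5 of them the commonest start was one in all TruSeq and another in all v1.5 libraries. Over groups of neighbouring 5′ ends of the genome, at most 5 nt apart and with the same minimum, this held in 23.5% of 1219. For miR-136-3p the start 1 base upstream held 71.8 to 73.5% in TruSeq and 41.1 to 42.2% in v1.5, and the reference start 19.7 to 21.2% and 48.8 to 51.3%. For miR-127-5p the start 2 bases downstream was commonest in TruSeq (47.6 to 49.4%) and the reference start in v1.5 (61.6 to 64.1%). miR-337-3p, miR-431-3p and miR-543-5p were the other 3.

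Since the seed is counted from the start, these forms read as different seeds: AUCAUCG for miR-136-3p (-1) and UCAUCGU for the reference start. In NEXTflex MIN6 the commonest start was another than in TruSeq and in v1.5 for 5 of 48 arms, namely miR-323-3p, miR-543-5p, miR-376a-5p, miR-485-3p and miR-412-3p, beside 21.9% of 978 such groups of the genome. miR-485-3p began at the reference in 75.0% of NEXTflex counts and in 22.4 to 25.5% of TruSeq and 16.5 to 24.0% of v1.5 counts. In liver, miR-411-5p (-1) made up 38.5% of the arm with TruSeq, against 12.9 to 13.8% in MIN6 with the same kit.

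Reads with a G at an A of the reference were counted at inner bases (up to base 17), since the deamination of adenosine to inosine by ADAR enzymes, known for hairpins of the miR-376 family, reads as G. Of 237 A positions with at least 100 covering counts in each of the 6 TruSeq and v1.5 libraries, 5 had a mean share over 1%, of which 4 lay in the seed. miR-376b-3p A6G, with positions counted from 1 at the 5′ end and the reference base first, was found in 4.20, 5.19 and 9.05% of counts in TruSeq and 3.35, 4.45 and 3.62% in v1.5. The ranges overlapped (exact permutation p = 0.2). It was found in 0 of 652 counts in NEXTflex MIN6, which allows a share of up to 0.460% if alignments with a mismatch that are missing from that file had no read.

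miR-376c-3p A6G was at 4.66 ± 0.0961% in TruSeq and 2.46 ± 0.473% in v1.5 (SD, n = 3 each; exact permutation p = 0.1), and at 0 of 1857 counts in NEXTflex (up to 0.162%, on the same condition). miR-411-5p A5G had the opposite order, at 1.51 ± 0.0808% in TruSeq and 5.30 ± 0.159% in v1.5 (SD, n = 3 each; exact permutation p = 0.1), and at 5.84% of 12938 counts in NEXTflex (95% binomial interval 5.44 to 6.25%, exact). In TruSeq liver it was at 2.64% of 1286 counts (1.84 to 3.68%). miR-337-3p (-1) A11G was at 4.57 ± 0.999% in TruSeq and 1.05 ± 0.397% in v1.5 (SD, n = 3 each; exact permutation p = 0.1), on 275 to 612 counts a library, and at 0 of 524 counts in NEXTflex (up to 0.573%, on the same condition). A share of mismatches is a share of what a kit captured, and whether the reads come from edited RNA was not tested.

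**Figure D5:**
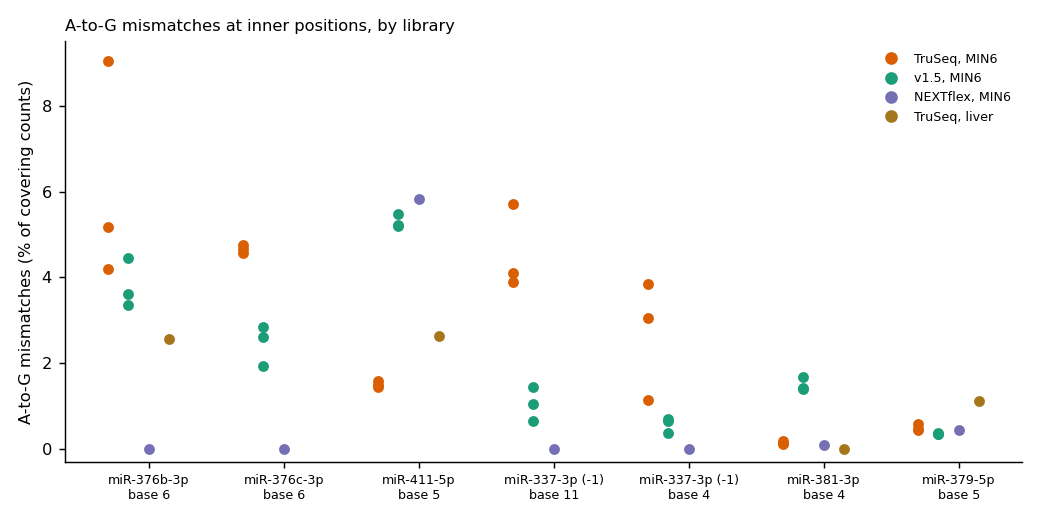
Share of reads with G at an A of the reference (% of counts covering the base), by library, for the 7 positions with the highest mean over TruSeq and v1.5; groups with under 20 covering counts are left out. miR-411-5p base 5 is higher in v1.5 (5.19 to 5.48%) than in TruSeq (1.43 to 1.59%), while miR-376c-3p base 6 is higher in TruSeq (4.56 to 4.75%) than in v1.5 (1.94 to 2.85%).

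TruSeq libraries 1 and 2 also carried a mismatch that library 3 did not: of the 237 A positions, an A-to-C change was over 1% at 34 and 43 in those libraries, 34 and 42 of them at base 2 or 7, and at 0 positions in library 3. In miR-541-5p, A2C was at 3.30, 3.62 and 0.0060% in TruSeq. In the v1.5 libraries 1 or 2 positions were over 1%, and in NEXTflex MIN6 17 were, 0 of them at base 2 or 7. TruSeq means of mismatches therefore join libraries that differed in this respect, and its cause was not tested.

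The inner mismatch with the highest mean was no A-to-G change but miR-379-3p T10C, at 3.22 ± 0.637% in TruSeq and 7.90 ± 0.668% in v1.5 (SD, n = 3 each). Base 10 is one of the 2 bases at which miR-379-3p differs from miR-411-3p, and T10C is the base that miR-411-3p carries there. Whether reads of one arm were placed on the other was not tested. Apart from miR-376c-5p, for which 78.0% of counts were exactly whole numbers, at least 97% of counts of each arm were exactly whole numbers in the files.

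Read lengths differed between the kits. Reads of 22 nt made up 49.1% of arm counts in TruSeq and 35.1% in v1.5, and reads of 21 nt 19.6% and 36.1%, with 41.2% in NEXTflex MIN6. Single arms did not share 1 direction. Of the 12 arms with the highest TruSeq levels, 5 had a lower share of 22 nt among their exact reads in every v1.5 library than in any TruSeq library, and 7 had a higher one. Exact miR-127-3p reads were 22 nt long in 78.7% of TruSeq and 42.6% of v1.5 counts and 21 nt long in 13.9% and 39.5%. For miR-136-5p the 22 nt share was 7.67% and 58.0% and the 21 nt share 66.0% and 4.596%, and for miR-300-3p the 22 nt share was 30.5% and 72.9%. Reads whose 3′ end carried only U or A beyond the genome sequence made up 13.0 ± 0.324% of arm counts in TruSeq and 8.04 ± 0.278% in v1.5 (SD, n = 3 each), 9.12% in NEXTflex MIN6, 22.5% in TruSeq liver and 0% in NEXTflex liver, where 97.5% of arm counts were exact. miR-127-3p, with 53.6% of the cluster's counts in TruSeq and 15.8% in v1.5, weighs on this order of the kits. For miR-127-3p alone the share was 20.3 ± 0.382% and 19.3 ± 0.211% (SD, n = 3 each) in MIN6 and 33.3% in TruSeq liver. Of the 12 arms, only miR-127-3p, miR-300-3p (19.9% and 13.3%) and miR-434-5p (0.956% and 0.390%) had the higher mean share in TruSeq. The others had it in v1.5, among them miR-541-5p (3.01% and 5.78%, TruSeq first). miR-434-3p carried such ends in 0.929 ± 0.0281% and 1.85 ± 0.0144% of counts (SD, n = 3 each) and in 10.7% in NEXTflex MIN6.

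The 22 members that lay on no arm were minor: snoRNAs held at most 0.183% of the cluster's counts in any library and 5′ ends on no annotated small RNA gene at most 0.354%. Of the 22, 15 passed the test between v1.5 and TruSeq, beside 53.8% of all 5′ ends. As a class, snoRNAs guide the modification of other RNAs. Those of this region are counted here as fragments, and their targets were not looked at. Of the 10 snoRNA 5′ ends, Gm25854 (+34) was the highest in TruSeq, at 49.7 CPM against 17 CPM in v1.5 (log2 fold change -1.55 ± 0.10 SE, edgeR adjusted p = 1.76e-05) and no count in NEXTflex. AF357341 (+51) went the other way, from 7.55 CPM in TruSeq to 14.4 CPM in v1.5 (0.92 ± 0.10 SE, edgeR adjusted p = 0.000188). One 5′ end on no annotated small RNA gene reached 145 CPM in TruSeq and 53.9 CPM in v1.5, with 21.7 CPM in NEXTflex and 0.462 CPM in TruSeq liver.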

How the data were processed

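Small RNA was sequenced from 7 MIN6 and 2 liver libraries, and 9 files were deposited, 1 per library. Per the labels and the study's methods, the authors trimmed the 3′ adapter with cutadapt (and the random end bases of NEXTflex reads) and mapped reads to mm9 with Bowtie. Tool versions were not given in the sources used here. The deposited values are expected counts: each line is a distinct alignment, and the authors split a read evenly where it could be placed more than once, so that values can be fractions. No molecular identifiers were used, so intervals cover counting error only. Depth ran from 6923460 to 25638871 counts per library.

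Counts of 18 to 25 nt alignments were summed per 5′ end, and 5′ ends with at least 100 counts over the 9 libraries were kept. CPM is relative to all deposited counts of a library. Hairpins and mature sequences were taken from GENCODE and RefSeq (GRCm38) with no conversion of coordinates. Members were named from the 48 5′ ends that the study's list names. For 32 of 32 of these that could be compared, the distances between them equalled those between the RefSeq starts, and the other members were placed by the same distances. In 50 of 50 hairpins no mismatched read base equalled the hairpin's own base. For Mir1197, Mir758 and Mir668 this also held at another placement that was tried, so the check does not fix their position. RefSeq gave a mature sequence for 87 of 91 arms.

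v1.5 and TruSeq were compared in MIN6 with edgeR 4.0.16 (R 4.3.3; quasi-likelihood test on counts rounded to whole numbers, library size as the sum of all counts, Benjamini-Hochberg over all 11764 5′ ends). The test was tried on simulated data: with 50 5′ ends changed at each fold size among these 11764, it recovered 3 at 1.5-fold, 10 at 2-fold, 31 at 4-fold and 42 at 8-fold, with 0 false calls. There 11564 5′ ends were left unchanged, whereas 53.8% were called in the data. The recovery and the false calls therefore need not hold for the data. Shares, arm ratios (0.5 added to each arm) and mismatch shares were compared by exact permutation tests, for which 0.1 is the smallest two-sided p. Intervals are Wilson binomial for the cluster's share of counts and exact binomial for mismatch shares, and those of ratios rest on the counts. Python 3.11.15, pandas 2.3.3 and SciPy 1.17.1 were used. Replicates of a kit differed beyond sampling noise (chi-square per degree of freedom 3.26 to 16.6 over members). No test was made for liver or NEXTflex, with 1 library per group.

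An arm stands for its most abundant 5′ end. Arms were named by rule: the 10 highest in MIN6, the 6 with the largest change in each direction, the 4 highest and 4 lowest in NEXTflex relative to the other kits, the 5 with most liver counts, both arms of miR-127, miR-380 and miR-409, the 4 hairpins whose arm ratio changed most and the 2 that changed least, and the 3 highest A-to-G shares. Where arms tied at 0 in NEXTflex, all 8 were given. Other arms and 5′ ends with values were chosen after those values were seen. The members, the groups along the chromosome and the markers were chosen with earlier results of these data known.

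Alternatives were other scalings (TMM, DESeq2's size factors, mapped reads), DESeq2 1.42.0 as the test, other minimum counts, all read lengths, exact alignments, whole-number counts, summed arms, a replicate block and leaving out each replicate.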

Additional observations from a re-analysis of the deposited data

Results flagged for a closer look

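NEXTflex and TruSeq stood in opposite order in MIN6 and in liver for 8 of the 37 arms with at least 10 counts in a liver library, counting those whose liver counts differed beyond counting error. By the same rule it held in 17.9% of 7092 5′ ends of the genome. miR-329-5p was at 145.38 CPM in the NEXTflex MIN6 library, above all 3 TruSeq MIN6 libraries (67.7 to 74.4 CPM), while in liver it had no count with NEXTflex and 28 counts with TruSeq. miR-337-5p was at 211.44 CPM against 139 to 161 CPM in MIN6, with 0 and 68 counts in liver. miR-369-3p was at 360.9 CPM against 155 to 179 CPM in MIN6, with 0 and 12 counts in liver. miR-382-5p was at 415.46 CPM against 198 to 225 CPM, with 1 and 12 counts in liver. miR-433-3p was at 152.27 CPM against 123 to 139 CPM, with 0 and 12 counts, and miR-543-3p at 22.895 CPM against 17.5 to 18.4 CPM, with 0 and 49 counts. In the last 2 the MIN6 levels were close: miR-379-3p was at 42.319 CPM against 37.3 to 42.2 CPM, with 0 and 36.5 counts in liver, and miR-411-3p at 70.674 CPM against 56.3 to 69.6 CPM, with 0 and 32.5 counts. The liver counts of 0 come from a file with few low counts. These differences were not tested, since each NEXTflex group has 1 library.

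On the minus strand of the region, 18 to 25 nt reads reached at most 29.5 counts in a library (the first v1.5 library). Plus-strand reads over 25 nt, which the length limit leaves out, reached 15580.5 counts in the same library. Over all libraries 48.4% of these longer reads began at the start of miR-541-5p, mostly with 26 nt, and 8.49% at that of miR-127-3p. Another 18.8% and 11.7% began at 2 positions that are no members, with 28 and 29 nt as the commonest lengths.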

How the results depend on the processing

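The count of 171 members called between v1.5 and TruSeq was 113 with a summed count of at least 500, where fewer 5′ ends were tested, and 90 with the 5′ ends of an arm summed. It ran from 160 to 173 when 1 replicate was left out. Of 611 values of the named arms over 18 settings, 600 kept their sign and their call, 4 lost the call and 7 changed sign. miR-380-3p became -0.044 with DESeq2's size factors. miR-434-5p became -0.41 with TMM and -0.47 with DESeq2's size factors (both then called, edgeR adjusted p = 0.00165 and 0.000808), -0.011 with exact alignments, -0.020 with summed arms, and ran from -0.029 to 0.035 without 1 replicate. The log2 fold changes of miR-411-5p and miR-541-5p lost their call where no filter on low counts was used. Apart from the construction of the settings with fewer features, the cause was not tested.

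With the study's mapped reads as denominator the cluster's share was 6.00% in TruSeq, 3.68% in v1.5 and 0.110% in TruSeq liver, and the TruSeq ratio of MIN6 to liver was 54.3. With all read lengths the share was 3.66% in v1.5, 0.998% in NEXTflex MIN6, 0.106% in TruSeq liver and 0.00720% in NEXTflex liver, and the TruSeq ratio was 55.7. With exact alignments it was 4.82% in TruSeq, 3.09% in v1.5, 0.810% in NEXTflex MIN6 and 0.0717% in TruSeq liver, and the ratios were 67.2 with TruSeq and 128 with NEXTflex. Without miR-127-3p, a setting added after seeing the data, the shares were 2.67, 2.97, 0.855, 0.0442 and 0.00500% in TruSeq, v1.5, NEXTflex MIN6, TruSeq liver and NEXTflex liver. Without miR-127-3p and miR-379-5p, also added, the ratios were 60.8 and 410.8 with TruSeq and NEXTflex. Leaving out 1 replicate gave shares of 5.66 to 5.85% in TruSeq and 3.47 to 3.57% in v1.5, a TruSeq ratio of 55.5 to 57.4, and 34 to 38 hairpins whose arm ratios did not overlap.

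Samples of 1 replicate number did not deviate together (correlations of 0.0885, -0.120 and 0.021 over 2983 5′ ends). Samples of unlike number gave -0.173 to 0.154. Noise of single libraries could hide shared RNA, so these values cannot decide whether the numbers pair the libraries. With the number as a replicate block 170 members were called and no named arm changed its call. Depth limits the low arms most: 3 counts correspond to 0.241 to 0.433 CPM in TruSeq MIN6, and a value of 0 in a NEXTflex library cannot be told apart from a low count that the file does not list.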
